A study of Mus musculus with 4 samples.

Results

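Among 78883 barcodes kept as nuclei from 4 libraries of mouse hippocampus, 124 (0.157%) carried the transcripts of the choroid plexus epithelium. They were chosen by their own counts: at least 3 unique molecular identifiers (UMIs, each standing for 1 captured RNA molecule) summed over Htr2c, Otx2, Folr1, Ecrg4, Sostdc1, Kl and Clic6, from at least 2 of these genes, with at least 1 of them outside Htr2c and Ecrg4, and at least 1 UMI of Enpp2. Ttr, the best known transcript of this epithelium, was kept out of the gate. The levels of the 8 gate genes are therefore a description of how the nuclei were found, and no test is attached to them between these nuclei and others.

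The mice came from a study of active place avoidance, in which an animal on a rotating arena learns to stay out of a zone of mild shock. There were 2 trained and 2 untrained mice, each library being taken as 1 mouse, and hippocampal nuclei were collected 3 days after a test of retention with no further recall session. All 4, the untrained included, had the genotype ArcCreERT2::eYFPflx, in which Cre driven by the Arc gene marks neurons active around the retention test; the mark was not used here, and the labels give neither age nor strain. With n = 2 in each group, p-values measure the spread between these 4 libraries alone.

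The choroid plexus is a folded epithelium that hangs in the brain ventricles, where it secretes cerebrospinal fluid and forms the barrier between blood and that fluid. Its cells pump ions across the apical membrane, carry hormones, folate and vitamins inward, and release transthyretin, which binds thyroid hormone. The plexus lies against the hippocampus along the choroid fissure, so pieces of it can come along with a hippocampal dissection.

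The 4 libraries did not contribute alike. Trained replicates 1 and 2 gave 23 and 56 choroid plexus nuclei, and Untrained replicates 1 and 2 gave 16 and 29. Their summed depth was 15219 and 50666 UMIs in the trained libraries, against 22037 and 26927 UMIs in the untrained ones. A nucleus held 402 to 9276 UMIs with a median of 663.5, and in Trained replicate 2 a single nucleus of 9276 UMIs made up 18.3% of the sum. Mitochondrial UMIs were 0.894% and 0.695% of the sum in trained and 0.835% and 0.613% in untrained libraries. Between any pair of libraries, 69 to 137 kept barcode sequences were the same, at most 0.816% of the smaller library; 0 of these was a choroid plexus nucleus in both libraries, and 3 choroid plexus barcodes were kept as another nucleus elsewhere.

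The gate rested mostly on 2 genes. Htr2c, the serotonin 2C receptor and one of the most abundant receptor transcripts of this epithelium, was seen in 124 of 124 nuclei and supplied 77.5% of the UMIs of the 7 summed genes. Enpp2, which encodes autotaxin, the secreted enzyme that makes lysophosphatidic acid, was present by requirement with 409 UMIs. Clic6, a member of the chloride intracellular channel family, was seen in 52 nuclei, Kl (klotho) in 44, the transcription factor Otx2 in 38, and Folr1, the folate receptor that carries folate into cerebrospinal fluid, in 17. Sostdc1, a secreted BMP and Wnt antagonist, and Ecrg4, a secreted peptide precursor, were seen in 6 and 5 nuclei. Most nuclei, 88 of 124, showed 2 of the 7 genes, 34 showed 3 and 2 showed 4.

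Trained replicate 1 stood apart in its small share of nuclei with a high summed gate count, but not in the median. Its nuclei were also the shallowest, with a median of 567 UMIs. The median summed gate count per nucleus was 4 and 6 UMIs in Trained replicates 1 and 2, against 7.5 and 4 UMIs in Untrained replicates 1 and 2. A sum of at least 6 was reached by 3 of 23 and 37 of 56 nuclei of Trained replicates 1 and 2, and by 11 of 16 and 11 of 29 nuclei of Untrained replicates 1 and 2. A stricter gate, with a sum of at least 5 from at least 3 genes, kept 0 and 18 nuclei of the trained libraries, against 4 and 2 of the untrained.

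At the edge of the gate, choroid transcripts that the gate did not read differed between strata of nuclei pooled over the 4 libraries. The 36 nuclei just inside, with a sum of 3, held 3379 CPM of Ttr (UMIs scaled to a summed total of 1000000), 10750 CPM of Trpm3 and 691 CPM of Otx2os1. The 39 barcodes just outside, which met every other condition with a sum of 2, held 2501 CPM of Ttr, 4334 CPM of Trpm3 and 306 CPM of Otx2os1. The 62 nuclei with a sum of at least 6 held 6309, 11136 and 1496 CPM of the 3 genes. Trained replicate 2 gave 37 of these 62 but 11 of the 36. Within libraries, from a sum of 3 to 5 to one of at least 6, Ttr rose except in Untrained replicate 2 (3634 to 3387 CPM). Otx2os1 rose except in Trained replicate 2 (1613 to 1022 CPM). Trpm3 went from 6406 to 11706 CPM in Trained replicate 1 and from 14420 to 11340 CPM in Trained replicate 2.

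Outside the gate, the nuclei carried a broad choroid plexus profile. Trpm3, a cation channel opened by heat and steroids, was seen in 122 of 124 nuclei (98.4%), Ttr in 114 (91.9%) and Otx2os1, a long noncoding RNA transcribed beside Otx2 from the other strand, in 69 (55.6%). Whether the counting used strand is not given in the sources used here, so reads where Otx2os1 meets its neighbour cannot be assigned with certainty. These transcripts were also counted in other barcodes, so the shares were set against those of excitatory neuron barcodes. Trpm3 was seen in 95.7% and 100% of choroid plexus nuclei in trained and 93.8% and 100% in untrained libraries, against 36.3%, 39.5%, 29.3% and 40.4% of excitatory neuron barcodes of Trained replicates 1 and 2 and Untrained replicates 1 and 2. Median depths in that order were 567, 598.5, 1125.5 and 731 UMIs in choroid plexus nuclei and 606, 924, 886 and 1150 UMIs in excitatory neuron barcodes. Otx2os1 was seen in 26.1% and 60.7% of choroid plexus nuclei in trained and 56.2% and 69.0% in untrained libraries, against 0.61% to 1.6% of excitatory neuron barcodes in any library.

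Against all other kept barcodes of the same libraries, 2694 genes outside the gate were abundant enough to test. By edgeR's quasi-likelihood test with the library as a block and a Benjamini-Hochberg adjusted p under 0.05, 175 genes were higher in choroid plexus nuclei (6.5%) and 152 were lower (5.64%). A gene that reached the level of the filter on low counts (81.7 CPM) in 1 class alone had its direction set by that filter. How many of the calls were of this kind was not counted. Tmem72 (ENSMUSG00000048108), a membrane protein used as a marker of this epithelium, had the largest fold among the 15 genes with at least 200 CPM in choroid plexus nuclei of every library. It stood at 394 and 454 CPM in choroid plexus nuclei of trained and 408 and 409 CPM in those of untrained libraries, against 5.09, 3.64, 0.845 and 2.20 CPM in the other barcodes of the same 4 libraries. The log2 difference was 7.29 ± 0.37 (SE) with an edgeR adjusted p of 7.61e-66. Tmem72 reached the level of the filter in choroid plexus nuclei alone, so the p-value lends its direction no support.

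The other 14 of these genes also had every choroid plexus value above every value of the other barcodes. Gmnc, a coiled-coil regulator of multiciliated cell formation, was higher by 6.94 ± 0.30 on the log2 scale (SE), and the RNA-binding protein Rbm47 by 6.89 ± 0.36. Secreted matrix genes were among them: Col9a3 (6.16 ± 0.35) and Col8a1 (5.55 ± 0.31), which encode collagen chains, and Sulf1 (6.02 ± 0.28), an enzyme that trims heparan sulfate. Among regulators, Otx2os1 was higher by 5.74 ± 0.22 and the zinc finger transcription factor Prdm16 by 5.13 ± 0.32. Trpm3 (ENSMUSG00000052387) reached 7031 and 11980 CPM in choroid plexus nuclei of trained and 9303 and 12404 CPM in those of untrained libraries, against 876, 772, 550 and 758 CPM in the other barcodes. That made it more abundant than Ttr in the choroid plexus nuclei of every library, by UMIs and not per length, at a log2 difference of 3.80 ± 0.19. The kinase Stk39, known as SPAK, which phosphorylates cation-chloride cotransporters, was higher by 3.32 ± 0.20. Nxn, Tbc1d9, Stard13 and Wdr17 had differences between 2.98 and 3.76. The edgeR adjusted p of these 15 genes was at most 3.77e-19. Only Trpm3, Stk39, Wdr17 and, in 1 library, Stard13 reached the level of the filter in the other barcodes. The rest of the 15 entered the test through the choroid plexus sums alone, so their direction was set by the filter and their p-values describe the size only.

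**Figure D1:**
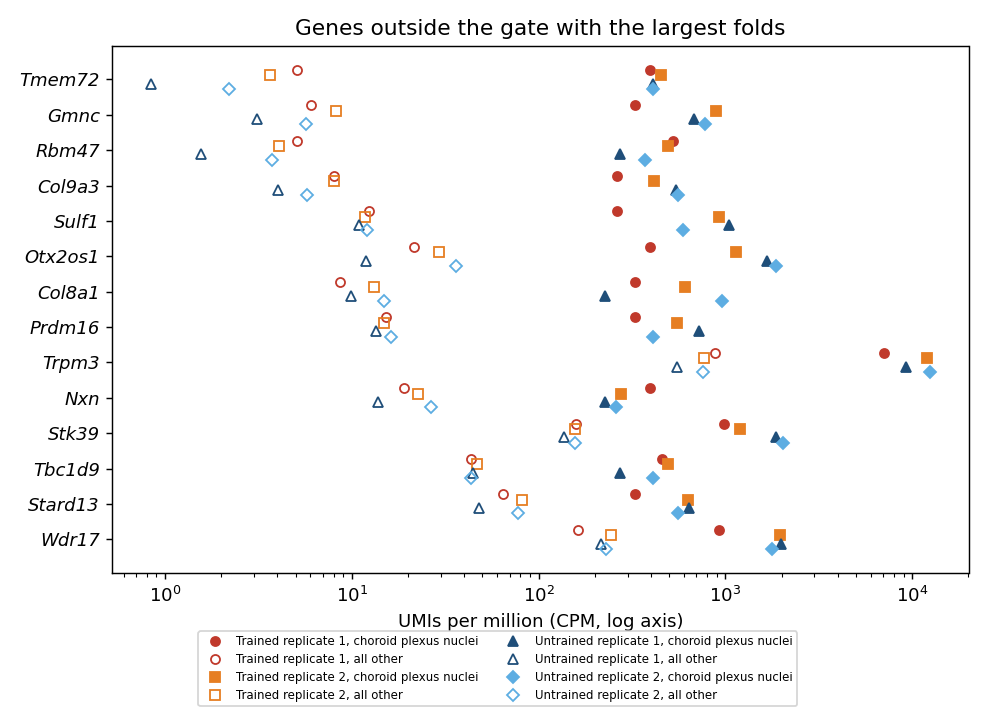
Level of 14 of the 15 genes outside the gate in choroid plexus nuclei (filled) and in all other kept barcodes (open), in CPM on a log axis, with 1 symbol for each library. Every filled symbol lies to the right of every open symbol of the same gene, from Tmem72 at 394 to 454 CPM down to Wdr17 at the foot.

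Of 41 listed genes of choroid plexus identity and secretion, 14 passed the filter on low counts and 27 could not be tested. Of the 14, 10 reached the level of the filter (81.7 CPM, in at least 1 library) in choroid plexus nuclei alone, so their direction was set by the filter and no count over the list is drawn from them. The other 4 reached it in both classes, and Ttr and Trpm3 were higher among them. Of the 10, Prlr, the prolactin receptor, was higher by 4.58 ± 0.39, Cgnl1, a junction protein, by 5.25 ± 0.50, and Bmp6, a secreted growth factor, by 4.11 ± 0.43. Of the 4, the prostaglandin synthase Ptgds had a difference of 0.29 ± 0.30 and the protease inhibitor Cst3 of -0.05 ± 0.24, neither past the threshold. Several defining transcripts were too rare to test: Kcnj13, an apical potassium channel, had 0 and 10 UMIs in trained and 2 and 3 UMIs in untrained libraries. Slc4a5, a bicarbonate cotransporter, had 1 and 13 UMIs in trained and 1 and 8 UMIs in untrained libraries. Cldn2, a tight junction claudin, had 4 UMIs in all, and Aqp1, the apical water channel, had 1 UMI, in Untrained replicate 2.

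Of 9 tested genes of ion and water transport, all at the level of the filter in both classes, 3 were higher and 0 lower. The median was 0.27 beside -0.07 over all 2694 tested genes, of which 6.5% were higher and 5.64% lower. The calcium pump Atp2b3 was higher by 2.48 ± 0.29, the sodium bicarbonate transporter Slc4a10, which feeds fluid secretion, by 2.00 ± 0.22, and the cotransporter Slc12a2 (NKCC1) by 1.89 ± 0.32. The sodium pump subunit Atp1b1 did not pass the test, with 0.21 ± 0.22. Of 28 solute carriers and exporters 6 were tested, and 4 of these reached the filter in both classes, where the ascorbate transporter Slc23a2 was higher by 1.79 ± 0.30 and Slc22a17 by 0.76 ± 0.27. Slco1c1, which carries thyroxine and reached the filter in choroid plexus nuclei alone, was higher by 3.07 ± 0.45. The list of thyroid hormone genes includes Ttr and Slco1c1; its receptors Thrb (0.79 ± 0.29) and Thra (-0.03 ± 0.31) did not pass.

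Of 26 cilium genes 4 passed the filter and 22 could not be tested. The dynein heavy chain Dnah9 (1.23 ± 0.35) and the cilium transcription factor Rfx3 (0.83 ± 0.24), at the level of the filter in both classes, were higher. So were the dynein heavy chain Dnah6 (5.16 ± 0.43) and the axoneme protein Spag16 (5.01 ± 0.34), which reached it in choroid plexus nuclei alone. Of the glucocorticoid response genes 5 were tested and 1 passed, beside 12.1% of all 2694 tested genes in either direction. It was the kinase Sgk1, higher by 1.26 ± 0.31, and the median of the 5 was -0.02. None passed among 7 clock genes, 9 chaperones (median 0.21) and 3 iron genes (0.08). Immediate early genes and interferon genes were too rare for any test: Fos had 0 of 114849 UMIs, which allows up to 26.1 CPM, and Arc had 1 and 2 UMIs in trained and 0 and 0 UMIs in untrained libraries.

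Of the 152 lower genes, 3 were picked for naming after their values were seen, among those with the smallest p. Kcnip4, a potassium channel subunit, had 5782 and 3651 CPM in choroid plexus nuclei of trained and 3903 and 2600 CPM in those of untrained libraries, against 8358, 8132, 6397 and 7735 CPM in the other barcodes. The difference was -0.99 ± 0.18 on the log2 scale. Dpp10, a potassium channel partner, differed by -1.36 ± 0.24 and Rbfox1, a neuronal splicing factor, by -0.90 ± 0.19.

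The summed excitatory neuron markers were close to their level in the other barcodes, but single members differed in either direction. The 6 excitatory neuron markers summed to 2497 and 2053 CPM in choroid plexus nuclei of trained and 2496 and 2117 CPM in those of untrained libraries, against 2539, 2100, 2729 and 2258 CPM in the other barcodes of the same libraries. Of the 5 tested, Camk2a was lower, at -0.71 ± 0.25, and Glis3, a transcription factor, was higher by 2.01 ± 0.25. Glis3 raised the sums, with 263 and 533 CPM in choroid plexus nuclei of trained and 590 and 668 CPM in those of untrained libraries. In the other barcodes it had 135, 153, 102 and 141 CPM, so the near equality of the sums does not hold for the list without it. None passed among 4 oligodendrocyte, 2 astrocyte, 4 inhibitory neuron and 1 microglial marker; summed oligodendrocyte markers ran from 788 to 1638 CPM in choroid plexus nuclei and astrocyte markers from 334 to 854 CPM. The 1 tested endothelial marker, the transcription factor Mecom, at the level of the filter in choroid plexus nuclei alone, was higher by 3.12 ± 0.48, while Cldn5 was at 0 in every library and Pecam1 and Ebf1 in 3 libraries each. Stroma markers summed to 0 to 74.3 CPM. The 10 ependymal markers summed to 591 and 316 CPM in choroid plexus nuclei of trained and 681 and 780 CPM in those of untrained libraries, against 115, 77.7, 62.9 and 130 CPM in the other barcodes; Dnah12, Spag17, Ccdc153 and Tmem212 were at 0 in every library, and Dnah6 was the 1 tested. At least 3 UMIs of some other cell type's markers were held by 8 and 22 nuclei of the trained and 14 and 14 of the untrained libraries, which is 58 of 124 in all. These are 34.8% and 39.3% of choroid plexus nuclei in trained and 87.5% and 48.3% in untrained libraries, against 30.3%, 45.8%, 53.9% and 60.0% of the other barcodes. In Untrained replicate 1, 13 of 16 nuclei (81.2%) held at least 3 UMIs of excitatory neuron markers, against 38.3% of its other barcodes. Its choroid plexus nuclei were deeper, with a median of 1125.5 UMIs against 707 UMIs. Per summed UMIs these markers stood at 2496 CPM there against 2729 CPM. The shares at 3 UMIs were not matched for depth, and the part of depth in them was not tested. Doublets were not called, and the part of free RNA and of doublets in these values was not tested.

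The count of genes called between choroid plexus nuclei and the other barcodes moved with the nuclei summed. It was 157 without Trained replicate 2 and 401 without Trained replicate 1, and 20 to 46 with fewer nuclei kept by a minimum of 1000 UMIs, by the stricter gate or by dropping nuclei with markers of another type. The 15 genes above were called higher wherever all 15 could be tested, and in those 3 reduced sets the 8 or 9 still tested were all called higher. They were picked by their calls and folds in these same nuclei, and a gene low in the other barcodes was tested only where choroid plexus nuclei held enough of it. Being called again is therefore no independent support.

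Otx2 is the homeobox factor that specifies this epithelium and keeps its identity, and the letters TAATCC are the core of the site it binds. RefSeq promoter windows of GRCm38.p6 (250 bases before to 50 after a start) were held for 15 of 24 genes, namely the gate genes, Ttr and the 15 genes above. TAATCC was found on either strand in 3 of these 15 genes (20%), and in 2199 of 27025 genes with a window (8.14%). Counted by window, it was in 3 of 25 (12%), against 2320 of 32851 (7.06%). The 3 windows are printed to show where the letters fall, on the gene's strand with the match in capitals, read as GGATTA where it lies on the opposite strand.
Otx2, chr14:48665060-48665359, minus strand: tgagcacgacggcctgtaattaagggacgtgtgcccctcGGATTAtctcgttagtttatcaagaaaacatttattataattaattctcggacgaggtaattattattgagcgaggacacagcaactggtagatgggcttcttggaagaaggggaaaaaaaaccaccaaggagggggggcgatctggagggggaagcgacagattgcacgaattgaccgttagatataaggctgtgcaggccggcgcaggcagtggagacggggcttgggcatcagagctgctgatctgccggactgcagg
Rbm47, chr5:66151905-66152204, minus strand: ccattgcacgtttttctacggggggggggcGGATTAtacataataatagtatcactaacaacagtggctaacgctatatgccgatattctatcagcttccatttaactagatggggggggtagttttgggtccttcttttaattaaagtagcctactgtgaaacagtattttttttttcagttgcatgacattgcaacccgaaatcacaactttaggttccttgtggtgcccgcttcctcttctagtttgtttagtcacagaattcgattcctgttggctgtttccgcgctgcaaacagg
Wdr17, chr8:54718619-54718918, minus strand: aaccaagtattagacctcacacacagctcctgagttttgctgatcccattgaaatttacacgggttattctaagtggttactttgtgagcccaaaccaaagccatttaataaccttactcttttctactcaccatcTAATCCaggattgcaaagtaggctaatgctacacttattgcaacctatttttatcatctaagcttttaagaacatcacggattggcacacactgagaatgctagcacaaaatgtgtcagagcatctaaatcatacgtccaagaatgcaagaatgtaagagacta
The match starts at -211 in Otx2, -220 in Rbm47 and -114 in Wdr17, counted from the start site, and it describes the letters of these windows only.

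Ependymal cells line the ventricles next to the choroid plexus, share its origin and carry many motile cilia, so they were the nearest class for comparison. Ependymal nuclei, at least 3 UMIs from at least 2 of 10 ependymal markers, numbered 60 and 53 in trained and 36 and 130 in untrained libraries. Barcodes that passed both gates were kept among the choroid plexus nuclei alone. They numbered 0 and 1 in trained and 3 and 0 in untrained libraries, or 18.8% of the choroid plexus nuclei of Untrained replicate 1. Of 3068 genes outside both gates, 81 were higher in choroid plexus nuclei (2.64%) and 156 were lower (5.08%) by the same edgeR test; without Trained replicate 2 the 237 calls in both directions (7.72%) became 124. Among the 8 with the largest fold, Col9a3 had 263 and 414 CPM in choroid plexus nuclei of trained and 545 and 557 CPM in those of untrained libraries, against 2 UMIs in all ependymal nuclei together. Its log2 difference was 5.51 ± 0.61, followed by Tmem72 (5.26 ± 0.62), Rbm47 (4.91 ± 0.59), Prlr (4.53 ± 0.66), Col8a1 (4.29 ± 0.47), Gmnc (4.15 ± 0.44), Trpm3 (4.05 ± 0.28) and the cell surface protease Fap (4.03 ± 0.90). The highest edgeR adjusted p of these 8 was 0.000178. Only Trpm3 of the 8 reached the level of the filter in ependymal nuclei. The others entered the test through the choroid plexus sums alone, so their direction was set by the filter. How many of the 81 and 156 calls were of genes at that level in 1 class alone was not counted.

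The 8 genes with the largest fold in the other direction were all at 0 UMIs in choroid plexus nuclei of every library. They entered the test through the ependymal sums alone, so their direction too was set by the filter. Wdr49, a WD repeat protein, had 0 UMIs in choroid plexus nuclei and 154 UMIs (583 CPM) in ependymal nuclei, and taking 3 UMIs over the group as the floor it was at least 22.3-fold lower in choroid plexus nuclei. Rgs22 was at least 19.6-fold lower. The others, T2, Lrrc36, Ttll8, Arhgap6, Cdhr3 and Dnah5, a dynein heavy chain of motile cilia, had bounds of 10.6 to 14.8. Of 16 cilium genes outside the gates 12 passed the filter, some through the ependymal sums where they are high, so no count over them is drawn. Spag16 and Dnah9, both higher than in the other barcodes, were lower than in ependymal nuclei, at -1.68 ± 0.31 and -1.83 ± 0.35, while Rfx3 differed by 0.13 ± 0.30.

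Of the 41 identity genes 26 could not be tested against ependymal nuclei, and 5 of the 15 tested reached the filter in choroid plexus nuclei alone. Among the rest, Ttr was higher by 2.75 ± 0.26, Otx2os1 by 3.38 ± 0.34 and Sulf1 by 3.79 ± 0.42. Bmp6, raised against the other barcodes, differed from ependymal nuclei by 0.03 ± 0.41, and Sgms2, a sphingomyelin synthase, by 1.26 ± 0.57, neither past the threshold. In ion and water transport Slc4a10 (2.36 ± 0.32) and Slc12a2 (1.79 ± 0.45) were again higher, of 9 at the level of the filter in both classes, as was Atp2b3 in choroid plexus nuclei alone. Slco1c1 was higher by 2.61 ± 0.67.

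The first comparison of training concerned how many choroid plexus nuclei the libraries held. They made up 0.133% and 0.312% of kept barcodes in trained and 0.0567% and 0.188% in untrained libraries, with exact 95% binomial intervals of 0.0844% to 0.2%, 0.236% to 0.405%, 0.0324% to 0.0921% and 0.126% to 0.27%, which cover counting error only. The trained range overlapped the untrained one, since Untrained replicate 2 lay above Trained replicate 1. The mean was 0.223% ± 0.126 in trained and 0.122% ± 0.093 in untrained libraries (SD, n = 2 each), and the difference of 0.100 percentage points had a two-sided exact permutation p of 0.667, where 0.333 is the smallest that 2 against 2 allows.

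How much of the plexus was in the tissue taken is not given, and the part of depth in the share was not tested. After each barcode was thinned to 400 UMIs, the gate held 13 and 25 nuclei in trained and 3 and 10 in untrained libraries, or 0.0753% and 0.139% against 0.0106% and 0.0647%. At this equal depth the groups did not overlap, with an exact permutation p of 0.333, the smallest that 2 against 2 allows. Among barcodes of at least 1000 UMIs, with 2 and 15 choroid plexus nuclei in trained and 9 and 11 in untrained libraries, the shares were 0.253% and 0.329% in trained and 0.116% and 0.157% in untrained libraries, again with no overlap and an exact permutation p of 0.333. Counts of choroid plexus nuclei for each ependymal nucleus were 0.383 and 1.06 in trained and 0.444 and 0.223 in untrained libraries, where the groups overlapped. The most common depth of the low-UMI barcodes was 202 and 200 UMIs in trained and 334 and 288 UMIs in untrained libraries, so the minimum of 400 UMIs lay closer to it in the untrained ones.

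**Figure D2:**
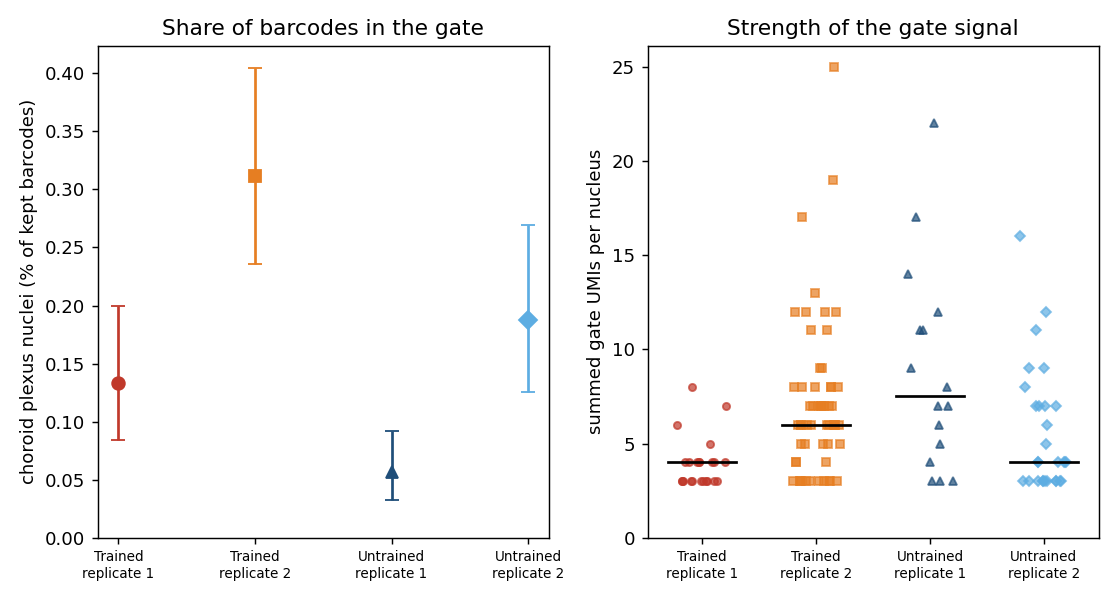
Left, choroid plexus nuclei as a percentage of kept barcodes in each library, with exact 95% binomial intervals as bars. Right, the summed UMIs of the 7 gate genes in each nucleus (points, spread sideways at random) with the median as a line; the medians are 4 and 6 in trained and 7.5 and 4 in untrained libraries.

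Ttr, the transthyretin gene and main secretory transcript of the plexus, did not separate trained from untrained choroid plexus nuclei. It stood at 3680 and 6533 CPM in trained (56 and 331 UMIs) and 5808 and 3528 CPM in untrained libraries (128 and 95 UMIs). The highest and the lowest library were one of each group, and the means were 5106 ± 2018 CPM in trained and 4668 ± 1612 CPM in untrained libraries (SD, n = 2 each). The log2 change was 0.11 ± 0.37 (SE) with an edgeR adjusted p of 0.942, and its sign turned without Trained replicate 2 (-0.52), without Untrained replicate 2 (-0.21) and with free RNA subtracted (-0.13). The single nucleus held 0 to 10 and 0 to 36 Ttr UMIs in trained and 0 to 29 and 0 to 11 in untrained libraries.

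Outside the choroid plexus nuclei, Ttr was higher in both trained libraries than in both untrained ones in each class examined, but not past the threshold. All other kept barcodes had 1328 and 1187 CPM in trained and 440 and 504 CPM in untrained libraries, a log2 change of 1.44 ± 0.18 with an edgeR adjusted p of 0.854 (unadjusted 4.8e-05), and 0 of 17800 genes were called there by edgeR (0%), with 775 at an unadjusted p under 0.05. Excitatory neuron barcodes had 1237 and 1027 CPM in trained and 385 and 413 CPM in untrained libraries. Ependymal nuclei had 860 and 1433 CPM in trained and 263 and 455 CPM in untrained libraries. Low-UMI barcodes, near or below that most common depth and taken as free RNA, had 3398 and 4346 CPM in trained and 1009 and 1674 CPM in untrained libraries, a log2 change of 1.48 ± 0.31 (edgeR adjusted p 0.51). In each of these classes both trained libraries were above both untrained ones, which was not so in the choroid plexus nuclei. The excitatory neuron barcodes and ependymal nuclei are part of all other kept barcodes, and every class comes from the same 4 libraries. The classes are therefore not independent observations. How often the groups separate over all genes of these classes was not counted.

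**Figure D3:**
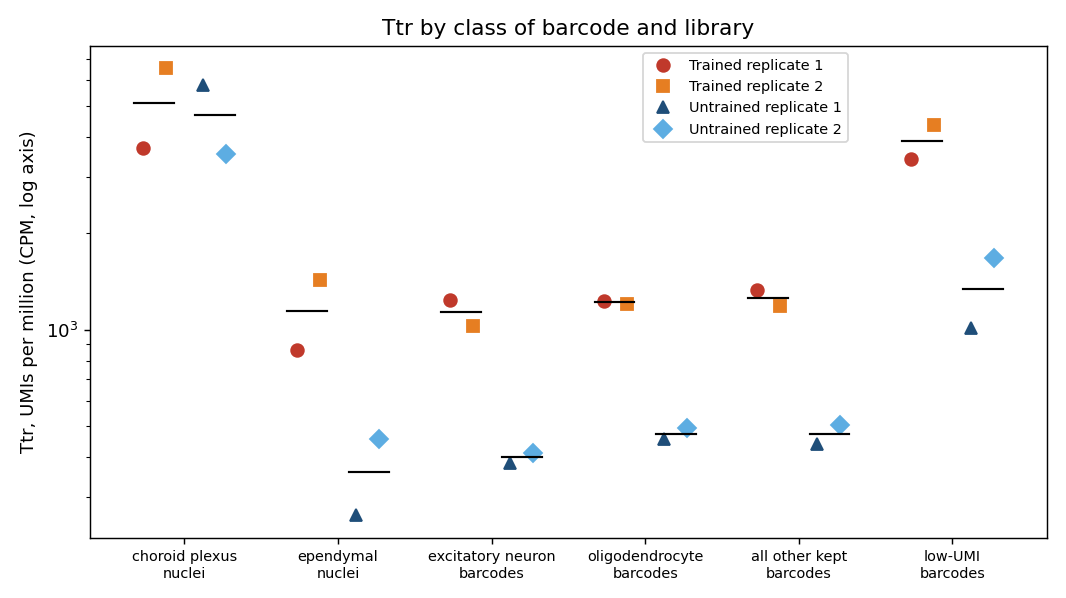
Ttr in CPM on a log axis, by class of barcode, with 1 symbol for each library and a line at each group's mean. The trained libraries lie above both untrained ones in every class but the choroid plexus nuclei, where they stand at 3680 and 6533 CPM against 5808 and 3528 CPM.

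Choroid plexus nuclei exceeded the other barcodes in Ttr by 2.77- and 5.50-fold in trained and by 13.2- and 6.99-fold in untrained libraries. Tested over all 4 libraries, Ttr was higher by 2.65 ± 0.20 on the log2 scale (edgeR adjusted p 2.1e-34). The change with training in choroid plexus nuclei minus that in the other barcodes was -1.23 ± 0.41 for Ttr, with an unadjusted p of 0.00449 and an edgeR adjusted p of 0.988 over 2699 genes, of which 0 were called (0%) and 108 had an unadjusted p under 0.05; without Untrained replicate 2 the value was -1.65 with an adjusted p of 0.0346. Choroid plexus nuclei held only 0.411% and 1.81% of the Ttr UMIs of kept barcodes in trained and 1.22% and 1.14% in untrained libraries.

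The ratio of transcripts also differed between the nuclei and free RNA. In choroid plexus nuclei there were 0.903 and 1.06 Ttr UMIs for each Htr2c UMI in trained and 1.08 and 0.76 in untrained libraries, a ratio that the gate affects because it selects on Htr2c. In low-UMI barcodes the ratio was 37.8 and 58.3 in trained and 28.3 and 24.3 in untrained libraries. Against Trpm3, which the gate did not read, there were 0.523 and 0.545 Ttr UMIs for each Trpm3 UMI in choroid plexus nuclei of trained and 0.624 and 0.284 in those of untrained libraries, against 8.18, 19.2, 7.42 and 9.42 in the low-UMI barcodes.

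The gate genes are given for description. How often the trained and untrained libraries separate over all genes of the other barcodes was not counted, so no count over the gate genes is drawn there. In the other barcodes Clic6 had 5.98 and 3.97 CPM in trained and 1.18 and 2.81 CPM in untrained libraries. In the same order, Folr1 had 7.74 and 5.69 against 1.78 and 3.05 CPM, and Ecrg4 14.7 and 13.1 against 5.88 and 7.87 CPM. Kl had 15.7 and 12.4 against 8.75 and 9.46 CPM, and Sostdc1 6.76 and 4.30 against 2.75 and 2.75 CPM. Enpp2 had 263 and 215 against 159 and 155 CPM, and Htr2c 128 and 133 against 63.0 and 127 CPM. For these genes, as for Ttr, both trained libraries were above both untrained ones. Otx2 stood at 6.17 and 4.90 CPM in trained and 3.25 and 6.04 CPM in untrained libraries, where the groups overlapped. Within choroid plexus nuclei Clic6 had 920 and 730 CPM in trained and 363 and 297 CPM in untrained libraries. Htr2c had 4074 and 6158 CPM in choroid plexus nuclei of trained and 5355 and 4642 CPM in those of untrained libraries, and Enpp2 had 3482 and 4066 CPM in trained and 2587 and 3454 CPM in untrained libraries.

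Across all genes, training gave no called difference in choroid plexus nuclei. Of 311 genes tested by edgeR, 0 passed (0%), with 15 at an unadjusted p under 0.05; DESeq2 called 0, with 5 under 0.05 unadjusted. Both trained libraries lay above both untrained ones for 66 genes (21.2%) and below them for 39 (12.5%), counts that serve as the background for the genes named next.

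Of these, the 6 with the smallest unadjusted p in each direction were as follows, none past the threshold. Btbd9, a BTB domain protein, had 1051 and 651 CPM in trained and 227 and 260 CPM in untrained libraries, a log2 change of 1.59 ± 0.52 with an edgeR adjusted p of 0.554. Schip1, a cytoskeletal adaptor, had 920 and 691 CPM in trained and 227 and 260 CPM in untrained libraries, a change of 1.56 ± 0.51. Both rest on few molecules, 16 and 33 against 5 and 7 UMIs for Btbd9. In the other barcodes Btbd9 had 665 and 679 CPM in trained and 398 and 543 CPM in untrained libraries (0.54 ± 0.20). Schip1 had 1019 and 1063 CPM there in trained and 793 and 963 CPM in untrained libraries (0.27 ± 0.18). The trained libraries were thus above both untrained ones outside these nuclei too. Schip1 was lower in choroid plexus nuclei than in the other barcodes, at -0.92 (edgeR adjusted p 0.00515). C1ql3, Clic6, Adgrl3 and Cnksr2 had changes of 1.05 to 1.36; C1ql3, Adgrl3 and Cnksr2 are known as neuronal genes, and Clic6 was part of the gate.

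In the other direction, Otx2os1 (ENSMUSG00000098682) had 394 and 1145 CPM in trained and 1679 and 1857 CPM in untrained libraries, a change of -1.05 ± 0.38 with an edgeR adjusted p of 0.837 (unadjusted 0.00808). Stk39, the kinase upstream of Slc12a2, had 986 and 1204 CPM in trained and 1861 and 2043 CPM in untrained libraries, a change of -0.86 ± 0.37. Both are among the genes that marked these nuclei against other barcodes, and Trained replicate 1, the library with the weakest gate signal, was lowest for both. In nuclei with a gate sum of 3 to 5, Otx2os1 stood at 298 and 1613 CPM in trained and 1082 and 1233 CPM in untrained libraries, where the groups overlapped; with a sum of at least 6 it stood at 1115 and 1022 CPM in trained and 1837 and 2692 CPM in untrained libraries, from 2, 41, 32 and 31 UMIs. The part of gate strength in these differences was not tested. Ahi1, Cntnap2, Ptprd and Flrt2 had changes of -1.10 to -0.77, and Flrt2 was at 0 UMIs in Trained replicate 1.

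By list, 0 of 10 tested identity genes were called with training in either direction, with a median of -0.26 beside -0.02 over 308 genes outside the gate. Tmem72 had 0.03 ± 0.47, Trpm3 -0.25 ± 0.38, Sulf1 -0.26 ± 0.46 and Col9a3 -0.63 ± 0.47. In ion and water transport 0 of 4 were called, with 0.09 ± 0.38 for Slc4a10 and -0.70 ± 0.40 for the sodium pump subunit Atp1b1. In the solute carriers 0 of 2 were called, and in the cilium list 0 of 2, with 0.54 ± 0.49 for Rfx3. At this depth even the log2 change of 1.59 ± 0.52 in Btbd9 did not pass the adjusted threshold.

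**Figure D4:**
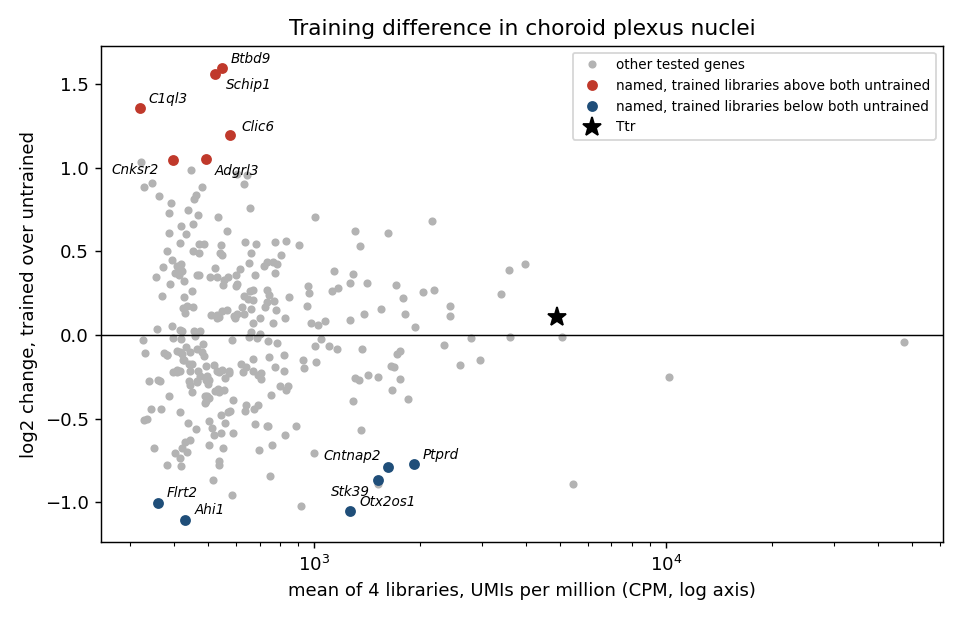
Log2 change of trained over untrained libraries in choroid plexus nuclei against the mean level of the 4 libraries, in CPM on a log axis, for the 311 tested genes. The 12 named genes are coloured, with Btbd9 at 1.59 and Otx2os1 at -1.05, Ttr is the star at 0.11, and 0 of the 311 passed the adjusted threshold.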

How the data were processed

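Nuclei were isolated from the hippocampus of 2 trained and 2 untrained mice, and libraries were made with Chromium 3' reagents, per the labels. The authors deposited whole-number UMI counts for 32285 genes in each barcode. The file headers name Cell Ranger 7.0.0; the submitters' processing notes instead list Cell Ranger 8, STAR and GRCm39, and this difference is unresolved. Barcodes with at least 400 UMIs and at most 5% mitochondrial UMIs were kept (17269 and 17949 in trained, 28219 and 15446 in untrained libraries), and the gate was applied. Deposited barcodes reach into low-UMI barcodes. Trained replicate 2 and Untrained replicate 2 have their most common depth in the lowest bin searched, so it is uncertain there, as is the free RNA taken from it. Doublets were not called.

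Members, lists and rules were chosen with earlier results of these data known. UMIs were added up over the nuclei of a class in each library, and the library is the unit. In R 4.3.3, edgeR 4.0.16 (TMM, quasi-likelihood F test, Benjamini-Hochberg at 0.05 over all genes tested) was run with library as a block between classes and with group alone for training. Training used filterByExpr. Between classes a gene needed the level of 2 UMIs at the median choroid depth (81.7 CPM) in at least 4 sums, a filter chosen on simulated data after the data were seen. Standard errors are the log2 change over the root of F. CPM is per summed UMIs without TMM. A training test needed at least 10 choroid plexus nuclei in every library.

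The text names the gate genes and Ttr; 15 called genes with the largest fold and at least 200 CPM in every library; up to 6 genes in each direction with training, by smallest unadjusted p without overlap; 8 in each direction against ependymal nuclei; and list members by smallest p. The values of some genes that meet these rules are not reported here. Predicted, mitochondrial, ribosomal protein and sex genes were left out. The 20 gene lists held 270 genes. Same-numbered libraries were not treated as pairs, since their deviations from the group means correlated at 0.04 over 311 genes. Alternatives were DESeq2 1.42.0, its size factors, no filter, no block or a replicate block, other UMI minimums, a stricter gate, nuclei with other markers removed, free RNA subtracted and each library left out; added after the data were seen were the default filter between classes and the sums without the deepest nucleus of each library. Python 3.11.15, numpy 2.4.6, scipy 1.17.1, pandas 2.3.3 and matplotlib 3.10.9 were used.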

Additional observations from a re-analysis of the deposited data

Results flagged for a closer look

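Ttr is listed because its training change in choroid plexus nuclei minus that in all other barcodes had an unadjusted edgeR p of 0.00449, at -1.23 ± 0.41 (SE) on the log2 scale. It fails the correction over 2699 genes, with an adjusted p of 0.988; 0 genes passed, and 108 had an unadjusted p under 0.05. Choroid plexus nuclei had 3680 and 6533 CPM in trained and 5808 and 3528 CPM in untrained libraries, while both trained libraries were above both untrained ones in the other barcodes (1328 and 1187 CPM against 440 and 504 CPM). The value was negative under each alternative run, from -2.41 with at least 1000 UMIs, where the adjusted p was 0.0876, to -0.43 with nuclei holding markers of another cell type removed. The part of free RNA in the difference was not tested; with free RNA subtracted the value was -1.86 and the adjusted p 0.625.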

How the results depend on the processing

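With training, 0 genes were called in choroid plexus nuclei under every alternative that could be run. The replicate block also called 0, with 13 genes at an unadjusted p under 0.05, and gave Ttr 0.08 ± 0.40. The Ttr change turned negative with free RNA subtracted (-0.13) and ran from -0.52 to 0.51 when 1 library was left out. Its difference from the other barcodes ran from -1.91 to -0.69 with 1 library left out, past the adjusted threshold only without Untrained replicate 2. The share of choroid plexus nuclei differed by 0.011 to 0.19 percentage points with 1 library left out. Against all other barcodes, 327 calls became 195 with DESeq2, 792 with no filter, 759 with the default filter, 46 at 1000 UMIs or more, 41 with nuclei holding other markers removed, 20 with the stricter gate, and 157 to 401 with 1 library left out. Against ependymal nuclei, 237 became 103 with DESeq2, 116 with the default filter, 33 with the stricter gate, and 124 to 245 with 1 library left out. Fewer nuclei or genes were tested in the reduced sets; the cause of the other moves was not tested. The stricter gate left Trained replicate 1 with 0 nuclei, so 3 libraries were used. Training fits at 1000 UMIs, with the stricter gate and with other markers removed were not run, since a library fell under 10 nuclei. For single named genes, the 95 values against ependymal nuclei, 116 against the other barcodes and 124 for the 12 genes named with training, Ttr not counted, kept their direction and side of the threshold. The 12 were picked for groups that did not overlap, and 0 genes were called with training, so their agreement was largely set in advance. The genes named between classes were picked as called with large folds in the same nuclei, so theirs is no independent support either. Depth limits the tests: 15219 to 50666 UMIs per library.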
